A study of Homo sapiens with 3 samples.

Results

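The genes described are those of the constitutive proteasome, measured in TK-10, a line of human renal carcinoma cells. They comprise the 14 core subunits, 17 subunits of the 19S regulatory particle, 4 assembly factors and 2 activators, which makes 37 genes. A probe was assigned to a gene when its RefSeq accession in the array's annotation belonged to that gene, and no measured value entered this assignment. By this rule 49 probes of 58171 stood for the 37 genes, among 22430 genes that could be named. Where a gene had more than 1 probe, its values are those of the probe that was brightest on average over the arrays, which is a choice by measured signal. RNA was measured on 3 single-colour Agilent arrays, 1 per condition, after 48 h. The vehicle culture received 0.1% DMSO, another culture received cordyceps at 750 µg/ml and the last received sunitinib, a multi-kinase inhibitor used in renal cancer, at 10 µM. Per the labels, the medium of all 3 cultures held zinc sulfate at 16.7 µM, troglitazone at 10 µM, nicotinamide at 10 mM, serum at 10% and penicillin-streptomycin at 1%. The labels name cordyceps, a fungus, whereas the study names cordycepin, its nucleoside, and the files do not settle which was added, so the array is called by its label.

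The proteasome is the main protease for proteins marked with ubiquitin. Its 20S core is a barrel of stacked rings: outer alpha rings gate the entrance, and inner beta rings hold the active sites of PSMB5 (chymotrypsin-like), PSMB6 (caspase-like) and PSMB7 (trypsin-like). The 19S particle caps the core. Its ring of ATPases, PSMC1 to PSMC6, unfolds the substrate, and its non-ATPase subunits bind ubiquitin chains and remove them. Assembly factors such as POMP join the pieces and leave the finished particle. When proteasome activity is blocked, the transcription factor NFE2L1 is known to raise the subunit genes together.

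All values are log2 levels, that is, the log2 of a probe's processed signal less that of the 75th percentile of all probes on the array. A level therefore states where a probe stood on its own array, and levels of different genes are not compared, since probes differ in brightness per molecule. A log2 ratio is the level on a treated array less that on the vehicle array. With 1 array per group there is no replicate spread and no test. The only error available is the one that Feature Extraction gives for each spot. Among the 37 genes its lowest and its median value were both 10% of the signal on every array, and it reached 16.7% for POMP on the sunitinib array. A limit built on this error is nearly the same for most genes, so it acts as a fixed cut and not as a spread measured between arrays. Spots with an error of 10% on both arrays give a log2 ratio a combined error of 0.20, and a ratio beyond the 95% limit of its error is called past its error limit. This limit was 0.40 to 0.43 in the cordyceps comparison and 0.40 to 0.56 in the sunitinib comparison, and it does not cover differences between cultures, RNA preparations or hybridizations. Both comparisons use the same vehicle array, so an error on that array enters both. In a bulk sample, a lower level cannot be told apart from fewer cells of a type holding the RNA.

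All 37 genes were well above background on all 3 arrays. The 75th percentile of the signal was 164.8 on the vehicle array, 137.9 on the cordyceps array and 78.28 on the sunitinib array, and between 37.79% and 45.53% of probes were well above background. A bright area covered 581 spots of the cordyceps array, and 0 of the 49 proteasome probes lay in it. Of 9 renal epithelial markers with a probe, 8 were well above background on each array, with CA9 below, and their summed signal ranged from 142000 to 206100. VIM made up most of it, with 142500 on the vehicle array, 103600 on the cordyceps array and 106700 on the sunitinib array. With cordyceps, 3 of these markers were lower past their error limit, CDH6 (5.2-fold), PAX8 and PAX2, and 0 were higher. With sunitinib, 1 was lower past it and 3 were higher. Leukocyte markers had 1 or 2 of 4 probes above background and a summed signal of 187.2 to 732.5, with CD3E below on every array. CD14 was above on all 3 and made up most of that sum, with signals of 693 on the vehicle array, 373.7 on the cordyceps array and 116.1 on the sunitinib array. The PTPRC probe with the highest mean level was above on the vehicle and sunitinib arrays, with signals of 18.41 and 45.72. That is 5.23-fold higher with sunitinib, past its limit, though 18.41 is near the lowest signal above background on the vehicle array, 18.2. A second PTPRC probe was above on the vehicle array alone, at 26.55 beside 14.25 with sunitinib, and the rest were below on every array. The part of such cells in the results was not tested. Endothelial markers had 1 or 2 of 4 and a sum of 84.32 to 214.1, with PECAM1 and KDR below and CDH5 above on every array.

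On the sunitinib array, proteasome RNAs as a group stood lower than on the vehicle array. Of the 37 genes, 30 had a log2 ratio below 0 and 7 above, with a median of -0.35, quartiles of -0.51 and -0.23 and a range from -1.21 for PSMD14 to 0.31 for PSMA2. On the cordyceps array the group stood slightly higher, with 28 genes above 0, 9 below, a median of 0.16, quartiles of 0.02 and 0.33 and a range from -0.29 for PSMC3 to 0.55 for PSMB7. The median over all genes compared was 0.00 in both comparisons, with quartiles of -0.37 and 0.36 for sunitinib over 14894 genes and of -0.25 and 0.24 for cordyceps over 14773 genes. The proteasome genes lay closer together than genes in general: the SD over genes was 0.24 for the 37 against 0.71 for all in the cordyceps comparison, and 0.36 against 0.75 in the sunitinib comparison. Of the 37 genes, 25 were among the brightest 25% of genes in each comparison, and over those bright genes the median was 0.05 with cordyceps and -0.03 with sunitinib, with SDs of 0.51 and 0.61. Their quartiles were -0.16 and 0.26 with cordyceps and -0.37 and 0.34 with sunitinib. With cordyceps the SDs of all and of bright genes take in extreme ratios, up to 13.06, and the quartiles differ less from those of the 37.

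The counts depended on the size asked for. In the sunitinib comparison 2 of the 37 genes, PSMD14 and POMP, were lower by more than 2-fold, and over all genes 6.49% were lower and 6.41% higher by that much. At 1.5-fold, 5 genes were lower, namely these 2 and PSMA4, PSMA3 and PSMD11, which is 13.5% of the 37 beside 15.6% of all genes, and 0 were higher beside 15.4%. The share of proteasome genes lower by 1.5-fold was thus near that of genes in general and says nothing about the group. Against the spot error, 14 genes were lower past their limit, which is 37.8% beside 21.8% of all genes well above background on both arrays, and 0 were higher beside 22.6%. In the cordyceps comparison 0 of the 37 genes passed 2-fold or 1.5-fold in either direction, while over all genes 2.94% were higher and 2.73% lower by 2-fold, and 8.73% higher and 8.87% lower by 1.5-fold. Past the spot error 8 genes were higher, which is 21.6% beside 15.0%, and 0 were lower beside 13.3%.

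**Figure D1:**
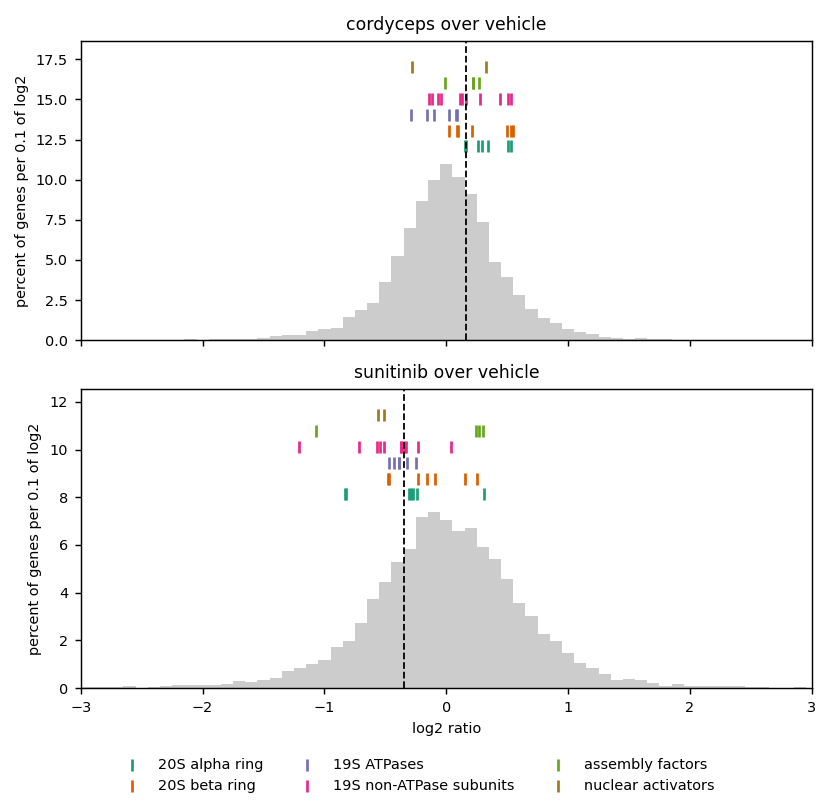
Distribution of log2 ratios over vehicle for cordyceps (top) and sunitinib (bottom). Grey bars give the percent of all genes well above background on both arrays in each bin of 0.1, coloured ticks the 37 proteasome genes by role at arbitrary heights, and the dashed line their median. The ticks centre on 0.16 in the top panel and on -0.35 in the bottom panel, and POMP and PSMD14 lie at -1.07 and -1.21 at the left of the bottom panel.

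PSMD14 is the deubiquitinase of the 19S lid, a zinc-dependent metalloprotease that cuts ubiquitin chains from the substrate, and its RNA had the lowest ratio of the group with sunitinib. Its level was 4.77 on the vehicle array, 5.30 on the cordyceps array and 3.57 on the sunitinib array, from processed signals of 4508, 5430 and 927.5. The ratio was 0.53 with cordyceps and -1.21 with sunitinib, or 2.31-fold lower, each past the error limit of 0.40. A second, dimmer probe of PSMD14 gave 0.38 with cordyceps, within its limit of 0.41, and -0.88 with sunitinib, past its limit of 0.44. Both probes thus stood higher with cordyceps and lower with sunitinib, but only the brighter was past its limit in both. POMP, the chaperone that joins the half-built core particles, had the second lowest ratio. Its levels were -0.41 on the vehicle array, -0.19 on the cordyceps array and -1.49 on the sunitinib array, and its signals of 123.6, 120.5 and 27.91 had the largest relative errors of the group. The ratio with sunitinib was -1.07, or 2.10-fold lower, against a limit of 0.56, and was -0.42 when the background was corrected by normexp, within that limit. With cordyceps it was 0.22, within its limit.

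The sequences upstream of 4 genes are shown so that these genes, which all stood lower with sunitinib past the error limit and differ in their motifs, can be read beside their values. PSMD14 and POMP had the lowest sunitinib ratios, PSMD12 joins PSMD14 among the genes past the error limit in opposite directions on the treated arrays, and PSMB3 holds both of the motifs searched. Each is the stretch of 250 bases that ends just before the start of the gene, taken from RefSeq on GRCh38.p14 and read 5′ to 3′ on the gene's strand. Capitals mark the CCAAT box (CCAAT, bound by NF-Y) or the core of the antioxidant response element (TGACNNNGC, a form bound by NFE2L1 and NFE2L2 with small MAF proteins), each searched on both strands.
PSMD14, chr2:161308175-161308424, plus strand: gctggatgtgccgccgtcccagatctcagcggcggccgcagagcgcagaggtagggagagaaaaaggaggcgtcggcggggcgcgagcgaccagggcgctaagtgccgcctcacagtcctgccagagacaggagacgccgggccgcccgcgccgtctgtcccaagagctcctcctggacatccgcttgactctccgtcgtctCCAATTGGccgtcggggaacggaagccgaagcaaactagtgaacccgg
POMP, chr13:28658880-28659129, plus strand: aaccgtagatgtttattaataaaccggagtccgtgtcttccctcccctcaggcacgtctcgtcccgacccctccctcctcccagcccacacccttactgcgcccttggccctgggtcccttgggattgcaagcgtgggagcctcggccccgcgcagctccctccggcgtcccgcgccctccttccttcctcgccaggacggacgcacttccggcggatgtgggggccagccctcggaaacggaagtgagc
PSMD12, chr17:67366578-67366827, minus strand: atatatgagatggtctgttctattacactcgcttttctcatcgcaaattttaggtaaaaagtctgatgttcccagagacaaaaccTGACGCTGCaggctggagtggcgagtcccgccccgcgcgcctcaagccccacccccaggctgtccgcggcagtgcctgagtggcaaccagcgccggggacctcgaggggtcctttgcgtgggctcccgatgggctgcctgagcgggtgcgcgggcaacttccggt
PSMB3, chr17:38752491-38752740, plus strand: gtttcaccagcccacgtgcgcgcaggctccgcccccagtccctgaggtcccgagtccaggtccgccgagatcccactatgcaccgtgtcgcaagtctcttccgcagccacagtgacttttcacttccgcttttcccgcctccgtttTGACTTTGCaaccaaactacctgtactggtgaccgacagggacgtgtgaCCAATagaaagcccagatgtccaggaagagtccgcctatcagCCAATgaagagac
The PSMD14 window holds a CCAAT box on each strand, overlapping each other, whose ends lie 44 and 41 bases before the start. The core element of PSMD12 ends 157 bases before the start, that of PSMB3 96 bases before it, and the POMP window holds neither motif. Promoter entries were found for 32 of the 37 genes. A CCAAT box was in 15 of the 32 windows, or 46.9%, and in 5460 of 15843 windows of the same length at protein-coding genes, or 34.5%. The core element was in 6 of 32, or 18.8%, and in 1822 of the 15843, or 11.5%. The 6 genes were PSMB3, PSMD3, PSMD5, PSMD9, PSMD12 and PSME4. These shares rest on few genes, and their differences were not tested. Genes with and without a motif had similar medians. For the CCAAT box these were 0.16 and 0.15 with cordyceps and -0.37 and -0.39 with sunitinib, and for the core element 0.18 and 0.15, then -0.42 and -0.36. A match is a run of letters and not a bound site.

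The alpha ring stood above the vehicle array with cordyceps at all 7 genes, 5 of them in all 10 ways of processing the arrays, with a median of 0.29, and below it with sunitinib at 6 of 7, with a median of -0.29. PSMA6, one of its structural subunits, had levels of 6.22 with vehicle, 6.75 with cordyceps and 5.95 with sunitinib. Its cordyceps ratio of 0.53 was the highest in the ring and past the limit of 0.40, whereas its sunitinib ratio of -0.27 was within it. PSMA5 behaved likewise, with levels of 4.73, 5.24 and 4.49 in the same order and ratios of 0.51 and -0.24. PSMA3 and PSMA4 were instead the low genes of the ring with sunitinib. PSMA4 stood at 4.88, 5.14 and 4.05, with a sunitinib ratio of -0.83 or 1.78-fold lower. PSMA3 stood at 5.30, 5.59 and 4.48, with -0.82 or 1.76-fold lower. Their cordyceps ratios of 0.26 and 0.29 were within the limit. PSMA2 was the exception in direction, at 4.58, 4.73 and 4.89, and its sunitinib ratio of 0.31 was the highest of the 37 genes although within its limit and below 0 with median scaling, without scaling or with normexp. The remaining alpha genes were PSMA7, with ratios of 0.34 and -0.31, and PSMA1, with 0.15 and -0.29, all within the limit. PSMA1 had a second probe for another transcript, much dimmer, whose cordyceps ratio was -1.02. The gap of 1.17 between the probes of PSMA1 was larger than its limit of 0.74, so the direction of this gene with cordyceps depended on the probe.

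**Figure D2:**
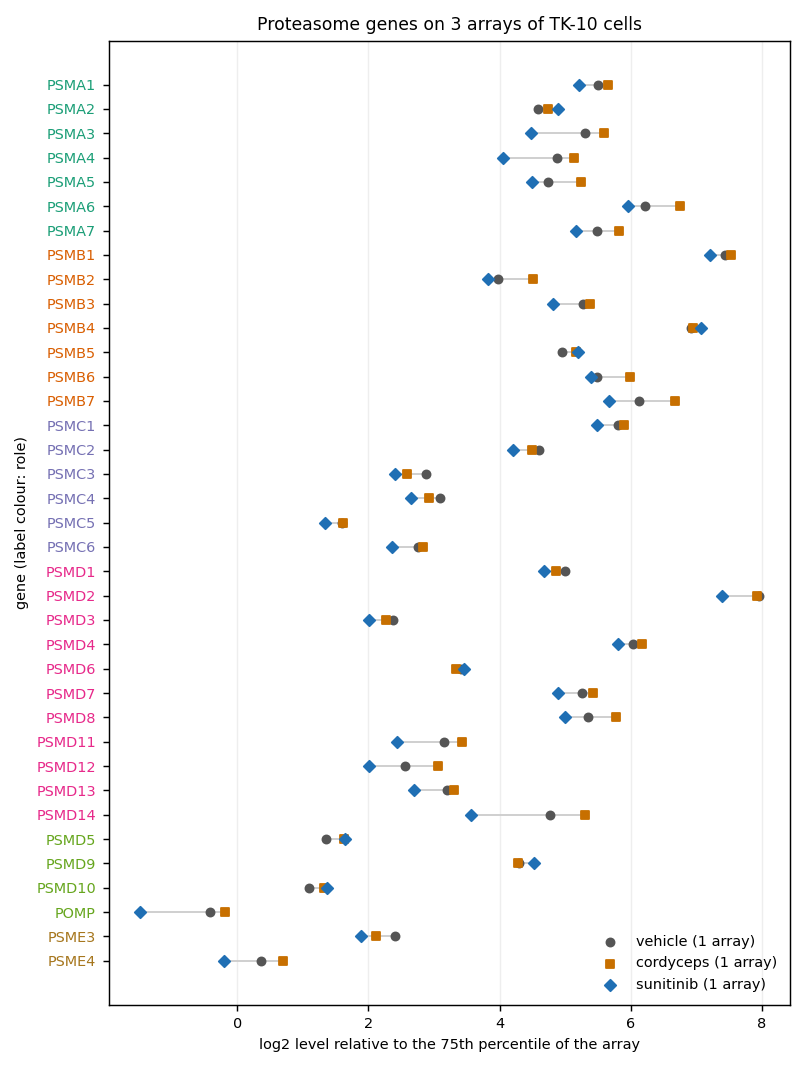
Log2 level of each of the 37 proteasome genes on the vehicle, cordyceps and sunitinib arrays, relative to the 75th percentile of each array, with genes ordered by role. Each point is 1 array and no replicate exists. PSMD14 shows the widest gap, from 5.30 with cordyceps to 3.57 with sunitinib, while the points of PSMB4 (6.92 to 7.07) nearly coincide.

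The beta ring also lay above 0 at all 7 genes with cordyceps, 3 of them in all 10 ways of processing, with a median of 0.21, and its sunitinib median was -0.16, with 5 of 7 genes below 0. The catalytic subunits differed among themselves. PSMB7 had levels of 6.13 on the vehicle array, 6.68 on the cordyceps array and 5.66 on the sunitinib array. Its ratios of 0.55 and -0.48 were both past the limit, and the first was the highest of the group with cordyceps. PSMB6 stood at 5.49, 5.99 and 5.40, so it was higher with cordyceps by 0.50, past the limit, and at -0.09 with sunitinib. PSMB5, the target of clinical proteasome inhibitors, stood at 4.95, 5.16 and 5.20, with ratios of 0.21 and 0.25 that were both within the limit. Among the subunits without an active site, PSMB2 stood at 3.98, 4.51 and 3.82, and its cordyceps ratio of 0.53 was past the limit. A second probe of PSMB2 gave 0.58 with cordyceps. PSMB3 had a sunitinib ratio of -0.47, past the limit, and a cordyceps ratio of 0.10. PSMB1 at 0.09 and -0.23 and PSMB4 at 0.02 and 0.15 were within the limit in both comparisons.

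The ATPase ring of the 19S particle differed from the core in the cordyceps comparison. Of its 6 genes, 3 were above 0 and 3 below, with a median of -0.04 and none past the limit, whereas all 14 core genes were above 0, 8 of them in all 10 ways of processing, with a median of 0.28 and 5 past the limit. This contrast is a description of 1 pair of arrays and was not tested. With sunitinib all 6 ATPase genes lay below 0, in every way of processing, in a narrow range, from -0.47 to -0.25 around a median of -0.39. PSMC3, lowest of the 37 genes with cordyceps, stood at 2.87 on the vehicle array, 2.58 on the cordyceps array and 2.40 on the sunitinib array, with ratios of -0.29 and -0.47, the latter past the limit. PSMC4 was past the limit with sunitinib as well, at -0.43, with -0.16 with cordyceps. The others were within it in both comparisons, PSMC1 with 0.09 and -0.32, PSMC2 with -0.10 and -0.39, PSMC5 with 0.02 and -0.25 and PSMC6 with 0.08 and -0.39. A second probe of PSMC2, for another transcript, gave -0.79 with cordyceps, apart from the brighter probe by 0.68 against a limit of 0.60 but in the same direction.

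The 11 non-ATPase subunits, which form the base scaffold, the ubiquitin receptors and the lid, had a median of 0.13 with cordyceps, with 3 past the limit, and of -0.37 with sunitinib, with 10 of 11 below 0, in every way of processing, and 5 past the limit. Beside PSMD14, PSMD12 was past the limit in opposite directions. This lid subunit stood at 2.55 with vehicle, 3.06 with cordyceps and 2.01 with sunitinib, giving ratios of 0.51 and -0.54. PSMD11, also of the lid, stood at 3.15, 3.43 and 2.43, and its sunitinib ratio of -0.72 was 1.65-fold lower, with 0.28 with cordyceps. PSMD8, the third lid subunit higher past the limit with cordyceps, had a ratio of 0.44 there and -0.35 with sunitinib. PSMD2, a large scaffold subunit of the base that docks substrate carriers, stood at 7.96, 7.92 and 7.39. Its sunitinib ratio of -0.57 was past the limit and just short of 1.5-fold, which is 0.58 on this scale. PSMD13 had a sunitinib ratio of -0.51, past the limit, and a cordyceps ratio of 0.11. Of those within the limit in both comparisons, PSMD1, the other scaffold subunit, had -0.14 and -0.33, and PSMD4, a ubiquitin receptor, had 0.13 and -0.23. The lid subunits PSMD3, at -0.12 and -0.37, PSMD7, the partner of PSMD14, at 0.16 and -0.37, and PSMD6, at -0.07 and 0.04, were also within it. PSMD6 was the single 19S gene above 0 with sunitinib.

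**Figure D3:**
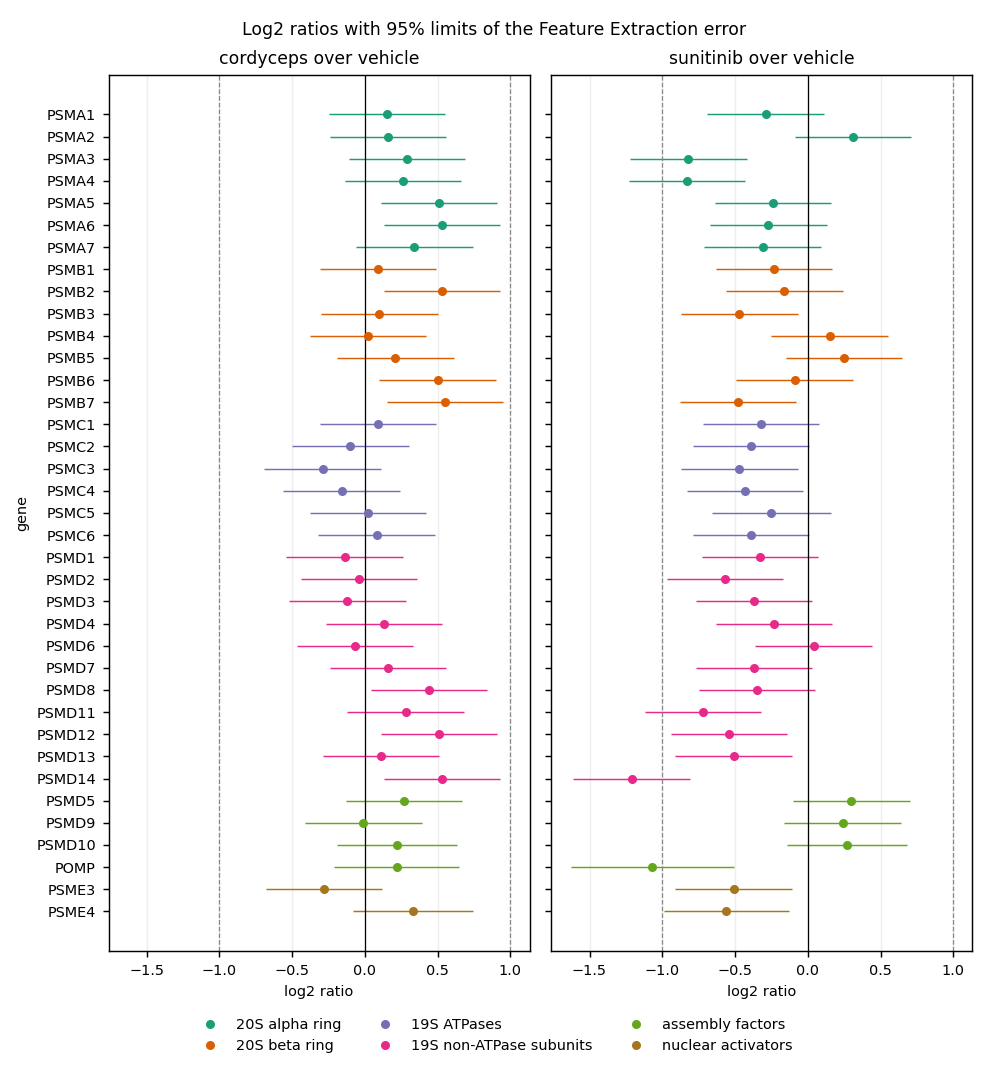
Log2 ratio of cordyceps over vehicle and of sunitinib over vehicle for the 37 proteasome genes, ordered by role. Bars are 95% limits from the spot errors of the 2 arrays, not replicate errors, and dashed lines mark 2-fold. The 8 genes whose cordyceps bar clears 0 are all on the higher side, and the 14 whose sunitinib bar clears 0 are all on the lower side.

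The assembly factors other than POMP lay above 0 with sunitinib, and below 0 with median scaling or without scaling, PSMD9 also with normexp and PSMD10 also when its probes were averaged (with normexp PSMD10 was at -0.00). PSMD5, PSMD9 and PSMD10 are chaperones that hold ATPase subunits before the 19S base is complete. PSMD5 stood at 1.35 on the vehicle array, 1.62 on the cordyceps array and 1.64 on the sunitinib array, with ratios of 0.27 and 0.30. PSMD10 stood at 1.10, 1.32 and 1.37, with 0.22 and 0.27, and PSMD9 at 4.29, 4.28 and 4.53, with -0.01 and 0.24. All 6 ratios were within the error limit. A dimmer probe of PSMD10 for another transcript gave -0.57 with sunitinib, 0.84 below the first probe against a limit of 0.74, so the direction of PSMD10 with sunitinib depended on the probe. Of the activators, which cap the core in place of the 19S particle in the nucleus, PSME3 (PA28 gamma) had levels of 2.40, 2.12 and 1.89 and ratios of -0.28 and -0.51. PSME4 (PA200) had levels of 0.36, 0.69 and -0.20 and ratios of 0.33 and -0.56. Both were past the limit with sunitinib and not with cordyceps.

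Whether probes of one gene agree bears on each of these values. Of the 37 genes, 25 had 1 probe and 12 had 2, and for 11 of the 12 both probes were well above background. In 3 of the 11 the probes differed past their combined limit in 1 comparison, namely PSMA1, PSMC2 and PSMD10, and in PSMA1 and PSMD10 they also differed in sign. Differences within the limit counted, 5 of the 11 pairs differed in sign with cordyceps and 1 with sunitinib. With cordyceps these were PSMA1, PSMD2 at -0.04 and 0.28, PSMD5 at -0.26 and 0.27, PSMD10 at -0.17 and 0.22 and PSME4 at -0.19 and 0.33, and with sunitinib it was PSMD10. The second probe of PSMD9 stayed below that mark on all 3 arrays.

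The scale of an array is a choice. It moves the level of the whole group and, by construction, hardly moves the place of the group among genes. With each array scaled by its median instead, the median ratio of all genes was 0.18 with cordyceps and -0.31 with sunitinib, and without any scaling it was -0.24 and -1.05. Read relative to the median of all genes, the proteasome median with sunitinib lay between -0.38 and -0.35 under 9 of the 10 ways of processing, and at -0.60 after normexp background correction. Most of the 9 could hardly change this value, since they only rescale an array or leave the 37 ratios nearly as they were. Of the ways that could, quantile normalization gave -0.38, the mean of all probes -0.37 and normexp -0.60. With cordyceps the proteasome median relative to all genes lay between 0.03, after quantile normalization, and 0.20. Without scaling, or with median scaling, all 37 genes were below 0 with sunitinib. By gene, with ratios taken to 2 decimals, 30 of 37 were below 0 with sunitinib in all 10 ways and 0 were above 0 in all, and with cordyceps 13 were above 0 in all and 2 below in all. The 8 genes past the error limit with cordyceps were among these 13.
The core and the 19S particle kept their order with cordyceps in all 10 ways. Ways that only rescale an array, or only leave out genes below background, could not change this order. It could change with quantile normalization, at 0.10 for the core and -0.08 for the 19S particle relative to all genes. The same holds for normexp, at 0.21 and -0.01, and for the mean of all probes, at 0.28 and 0.08. Relative to all genes, the core median ranged from 0.10 to 0.32 and that of the 19S particle from -0.08 to 0.12, and within each way the core was higher.

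**Figure D4:**
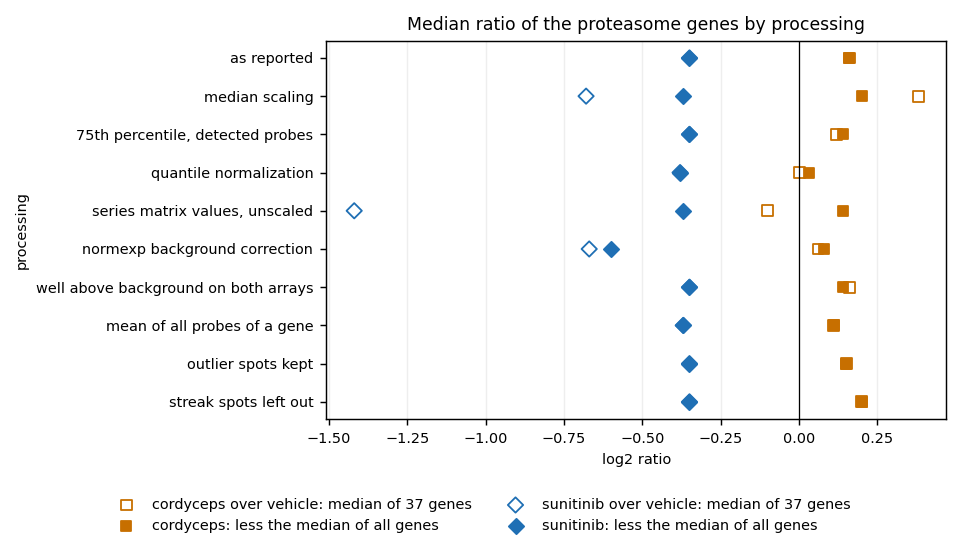
Median log2 ratio of the 37 proteasome genes under 10 ways of processing, for cordyceps and sunitinib over vehicle. Open points are the median itself and filled points the median less that of all genes. The filled points of sunitinib lie near -0.35 apart from the -0.60 of normexp, while the open points spread with the scaling, down to -1.42 without any.

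Set directly against each other, without the vehicle array, the treated arrays differed past the error limit at more of the 37 genes than either did from vehicle. This comparison was added after the values were seen. The median ratio of cordyceps over sunitinib was 0.46 over the 37 genes and -0.01 over 12494 genes. Of the 37 genes, 21 were higher on the cordyceps array past the error limit, which is 56.8% beside 25.1% of all genes, and 0 were lower beside 24.4%. PSMD14 had the highest ratio, 1.73 or 3.32-fold, and POMP followed with 1.29. PSMA3 with 1.11, PSMA4 with 1.10, PSMD12 with 1.05, PSMB7 with 1.02 and PSMD11 with 1.00 made up the rest at or above 2-fold. PSMD9 had the lowest ratio, -0.26, within its limit.

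Other genes of the pathway were followed as lists. The inducible subunits stood higher with cordyceps. PSMB8, PSMB9 and PSMB10 replace the catalytic subunits in the immunoproteasome, and PSME1 and PSME2 form its PA28 cap, all known to be raised by interferon gamma. With cordyceps all 5 were above 0, 4 of them in all 10 ways of processing, with a median of 0.58. Beside 15.0% of all genes well above background on both arrays, 4 of the 5 were higher past the limit. These were PSMB9 with 0.72, PSME2 with 0.62, PSMB10 with 0.58 and PSMB8 with 0.56, and PSME1 had 0.22. With sunitinib their median was -0.09, from -0.72 for PSMB10 and -0.57 for PSME2, both past the limit, through -0.09 for PSMB8 and 0.12 for PSMB9 to 0.14 for PSME1. Relative to all genes, the cordyceps median of these 5 lay between 0.48 and 0.62 over the 10 ways of processing.

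Of the genes that encode ubiquitin itself, UBB had a sunitinib ratio of 0.38, within its limit. RPS27A, which encodes ubiquitin fused to a ribosomal protein, had a sunitinib ratio of 1.06, past 2-fold, and a cordyceps ratio of 0.31, within its limit. Passing 2-fold depended on the processing. The highest ubiquitin gene with sunitinib was at 0.69 with quantile normalization and 0.66 with normexp. It was at 0.73 with median scaling and -0.01 without scaling, which move all genes. Genes of this kind share the ubiquitin sequence and have close copies, and how far their probes tell them apart was not tested.

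Assembly chaperones outside the 37 genes were listed with AKIRIN2, an importer of proteasomes into the nucleus. This list had a median of 0.47 with cordyceps, from -0.15 for PSMG2 to 0.56 for AKIRIN2. Of its 6 genes, 4 were higher past the limit, beside 15.0% of all genes well above background on both arrays. With sunitinib the median was -0.26, from -0.63 for PSMG1 to 0.31 for PAAF1. Other subunits and proteins bound to the 19S particle had a median of 0.00 with cordyceps, from -0.56 for PSMF1, an inhibitor of the core, to 0.54 for the deubiquitinase UCHL5. That median is the value of USP14, which fell short of the background mark on the cordyceps array. It is thus a bound set to 0 and not a measured ratio. The value of PSMF1 is that of its brightest probe, and its 3 dimmer probes gave 0.20, -0.11 and -0.27. Their sunitinib median was -0.24, from -0.45 for UCHL5 to 0.46 for TXNL1. Among ubiquitin activation and shuttle factors, UBQLN2 had -0.24 with cordyceps and 0.38 with sunitinib, and RAD23B was the lowest of them with sunitinib at -0.64. VCP, the segregase that pulls ubiquitinated proteins out of complexes and membranes, and its cofactors had a median of -0.07 with cordyceps, from -0.44 for UBXN4 to 0.08 for VCP, and of -0.46 with sunitinib, where all 5 were below 0, from -0.61 for VCP to -0.05 for NPLOC4.
NFE2L1 had a ratio of 0.54 with cordyceps, past its limit, and of 0.07 with sunitinib. Its list, which holds its processing enzymes and the small MAF partners, had medians of 0.31 and -0.25. MAFF was the one gene of the pathway past 2-fold with cordyceps, at 1.09, and the one lower by 2-fold with sunitinib, at -1.48. MAFK was at -0.38 and -0.77, and SEL1L was the highest of the list with sunitinib at 0.27, where a dimmer probe of it gave -0.14. The NFE2L2 probe and those of the tissue-specific core subunits PSMA8 and PSMB11 fell short of the background mark on all 3 arrays. Such a value cannot tell absent RNA from a probe that does not report its gene, so it does not show that NFE2L2 RNA was absent.

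**Figure D5:**
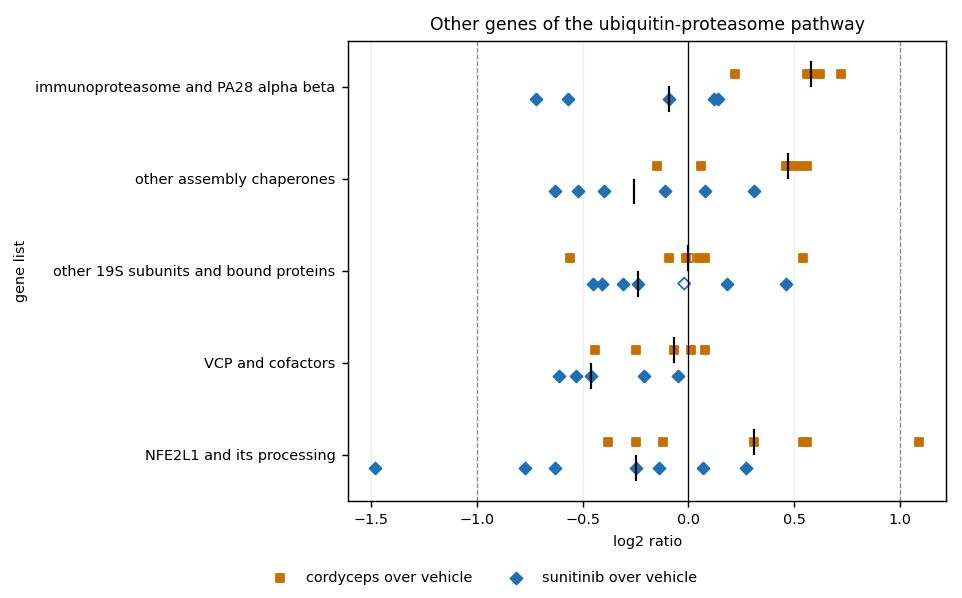
Log2 ratio over vehicle of other genes of the ubiquitin-proteasome pathway by list, for cordyceps and sunitinib. Each point is a gene, open points are bounds, and the black tick is the median of the list. The immunoproteasome list lies highest with cordyceps, at a median of 0.58, and the list of VCP and its cofactors lies lowest with sunitinib, at -0.46.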

How the data were processed

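RNA of 3 TK-10 cultures was measured on 3 single-colour arrays, 1 per condition, and groups were taken from the labels. Per the file headers, the authors deposited Feature Extraction 11.5.1.1 output on build hg19, where the processed signal is a linear intensity after background subtraction and each spot has an error estimate. They also deposited a table of processed values, of which 99.87% to 99.92% were within 0.01% of the mean processed intensity. The methods of the study describe another array with a red over green ratio and do not mention the sunitinib array, so only their 2-fold limit was used.

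Control spots and outlier spots were left out, replicate spots were averaged per probe, and the log2 level (deposited intensity relative to the 75th percentile of the array) was computed in Python 3.11.15 with numpy 2.4.6 and pandas 2.3.3. Figures were drawn with matplotlib 3.10.9. RefSeq accessions (table of GRCh38.p14, for names alone) gave a gene for 53.44% of 58171 probes. The probe with the highest mean level stood for a gene. Ratios needed a probe well above background on 1 or both arrays. Where 1 array fell short, its signal was replaced by the lowest one among probes above background (or kept, if higher), which makes the ratio a bound, and it was set to 0 where this left no fold.

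Named are genes past 1.5-fold, the 3 highest and 3 lowest per comparison, PSMB5, PSMB6 and PSMB7, genes whose probes disagree in direction, the highest and lowest of each pathway list, those past 2-fold and the immunoproteasome genes, except some that are not reported here. The remaining genes of the 37 are named so that each is accounted for. Genes, lists and comparisons were chosen with earlier results of these data known, and the motifs and the cordyceps over sunitinib comparison after values were seen. Alternatives were median scaling, a percentile over detected probes, quantile normalization and normexp (offset 50) with limma 3.58.1 in R 4.3.3, no scaling, genes above background on both arrays, the mean of all probes, outlier spots kept and the bright area left out. The computation was tested on simulated data. No p-value was computed, since each group has 1 array, and array number limits the precision.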

Additional observations from a re-analysis of the deposited data

Results flagged for a closer look

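Of the 37 proteasome genes, 3 had ratios past the spot error limit in opposite directions on the treated arrays. The share of all genes doing so was not counted, so this number says nothing about the group. Taken singly, 15.0% of all genes well above background were higher past the limit with cordyceps, and 21.8% were lower past it with sunitinib. PSMB7 had a log2 ratio of 0.55 with cordyceps and -0.48 with sunitinib. PSMD12 had 0.51 and -0.54, and PSMD14 had 0.53 and -1.21. A second, dimmer probe of PSMD14 gave 0.38 with cordyceps, within its limit of 0.41. The difference between the comparisons was not tested, since each condition has 1 array, and both ratios share the vehicle array. With cordyceps set directly over sunitinib, the ratios were 1.02 for PSMB7, 1.05 for PSMD12 and 1.73 for PSMD14. These follow from the ratios that picked the genes and add nothing to them.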

How the results depend on the processing

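Over 12 results, 103 of 116 alternative values stayed within the limits set for a move, which is the median combined spot error of 0.20 for a median and 1.5 times for a count, and 13 did not. Some of these values could not differ, so their number is no measure of stability. All 37 genes were above background on all arrays, so asking for this on both arrays left their ratios and counts unchanged. Every error limit, at most 0.56, lay below 1.5-fold, or 0.58, so adding it removed no gene. Within the limit set for a move, the cordyceps median still fell to 0.00 with quantile normalization, 0.03 above that of all genes, and so kept no direction, and to 0.06 with normexp. With median scaling the proteasome median was 0.38 with cordyceps and -0.68 with sunitinib, 8 genes were higher by 1.5-fold with cordyceps, and with sunitinib 5 were lower by 2-fold and 24 by 1.5-fold. Without scaling the cordyceps median turned to -0.10, the sunitinib median was -1.42, and 31 and 37 genes were lower by 2-fold and 1.5-fold with sunitinib. In both cases the scale moved all genes with them. Normexp correction gave a sunitinib median of -0.67, or -0.60 less that of all genes, with 23 genes lower by 1.5-fold, and the cause was not tested. Shares of all genes past these folds are not given for the alternative ways. The counts here show how much the processing matters and say nothing about the group. With the bright area of the cordyceps array left out, 1 gene was higher by 1.5-fold with cordyceps. PSMD14 with sunitinib ranged from -1.04 to -2.28. No paired analysis was possible because each condition has 1 array. Signal over background limits POMP most.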
